A study of Mus musculus with 15 samples.

Results

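The RNAs contacted by Sfpq in P19 cells were described from the complete list of Sfpq HITS-CLIP peaks, 29715 of the 75980 peaks that the 5 full peak lists of the series hold. All peaks of that list were taken. P19 cells derive from a mouse embryonal carcinoma and stand in for pluripotent stem cells. In HITS-CLIP, cells are irradiated with UV light, the protein is immunoprecipitated with the RNA crosslinked to it, and the RNA fragments are sequenced. Of the 15 samples of the series, 6 were Sfpq libraries, 3 from cells with a control siRNA (siCtr) and 3 from cells with siRNA against Sfpq (siSfpq), both with a control mimic and both precipitated with a mixture of anti-Sfpq antibodies. The authors merged the replicates and called the peaks with dCLIP, which compares both conditions and gives each peak a score.

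The score has no sign in the list, so it tells how strongly the conditions differed and not by itself in which direction. The list carries no value per library. The spread between replicates is therefore not known here and no test was possible. Read totals of the libraries were not used here, and what follows is a description of 1 merged comparison. A peak could have differed because the amount of protein bound changed or because the amount of the RNA changed, and these cannot be told apart. The study took these peaks as Sfpq-binding sites, and genes are called bound here on that basis. Its authors kept only peaks above a score cutoff. A gene without a listed peak therefore had none above that cutoff, and weaker contacts were not examined. The 95% Wilson intervals below cover the sampling of peaks or genes only.

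Sfpq (splicing factor proline- and glutamine-rich, also known as PSF) belongs with Nono and Pspc1 to the DBHS family of RNA-binding proteins, which carry tandem RNA recognition motifs and assemble into long polymers. These proteins are mainly nuclear, take part in splicing, transcription and 3′ end formation, and are core components of paraspeckles, the nuclear bodies built on the long non-coding RNA Neat1.

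The sequences under the peaks can be read at the genes on which the list turns. For each gene, the 30 nt window with most of the words searched is shown from its highest peak of 30 nt or longer, 5′ to 3′ on the transcribed strand (RefSeq, GRCm38). Capitals mark the words searched, CUGU, CUGA and NUGUA, where N is any base.
Slc2a3, a glucose transporter, 3′UTR, minus strand, chr6:122729205-122729234, score 242: gcCUGUAcuaaaaggcucauggcuuuCUGU
Peg10, an imprinted retrotransposon-derived gene, 3′UTR, plus strand, chr6:4759523-4759552, score 244: uuguuuuugcuuguuucagaauuuugCUGU
Hspa5, the ER chaperone BiP, exon, plus strand, chr2:34776108-34776137, score 243: UUGUAggugcaCUGAucugcuagagCUGUA
Malat1, a nuclear long non-coding RNA, minus strand, chr19:5800688-5800717, score 193: cacaaccucccaguuUUGUAagacgUUGUA
Lin28a, an inhibitor of let-7 maturation, 3′UTR, minus strand, chr4:134003791-134003820, score 113: AUGUAauCUGUcacccuuaggucgagagaa
Sfpq itself, intron, plus strand, chr4:127032511-127032540, score 81: uugggaaaUUGUAaucuuacacCUGUGUAa
Crebbp, a histone acetyltransferase, intron, minus strand, chr16:4211785-4211814, score 33: agccagaagaCUGUAaucaugugagAUGUA
Fat1, a giant protocadherin, exon, plus strand, chr8:45044121-45044150, score 65: agcugggauagucuuacuagugaugguguu
The Fat1 window holds neither word, and no other position in that peak does. Over the whole list the words were only moderately denser than beside the peaks, as given below.

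A typical Sfpq peak was short and had a score near the lowest listed, which follows from the cutoff set by the authors. The median peak was 55 nt long, with a range of 5 to 1945 nt, and the median score was 11, with a range of 8 to 1684. A score of 20 or more was reached by 4684 peaks (15.8%). The median score changed little with length up to 200 nt and was higher for longer peaks. It was 11 below 25 nt, 10 for the 10284 peaks of 25 to 49 nt, 11 from 50 to 99 nt, 12 for those from 100 to under 200 nt, 15 for those from 200 to under 500 nt and 35 for the 85 peaks of 500 nt or more. The peak names group neighbouring peaks into 21117 clusters, of which 80.7% held 1 peak. The largest, with 30 peaks, lay on Srrm2, which encodes a spliceosome-associated protein. Within a cluster the median gap between neighbours was 87.5 nt.

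Introns and 3′UTRs held similar numbers of peaks but not similar peaks. Introns held 8276 peaks with a median length of 50 nt and a median score of 10, and 8.34% of them reached a score of 20. The 7985 peaks in 3′UTRs had a median length of 70 nt and a median score of 12, and 18.5% reached a score of 20. They made up 26.9% of the peaks (26.4 to 27.4) and 34.5% of the length covered by peaks. Coding exons held 6534 peaks of 50 nt at the median, with 16.1% at a score of 20 or more. The 419 peaks listed as non-coding reached that score most often among the annotated gene parts, at 25.1%. This class also holds peaks of coding genes such as Atp2a2 and Pum2. Of its 105 peaks at that score, 21 lay on Malat1. The 5′UTRs held 301 peaks, and 3962 peaks (13.3%) were listed as intergenic. The remaining gene peaks lay at promoters and transcription start sites (promoter-TSS, 858 peaks) or around transcript ends (TTS, 1294 peaks).

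**Figure D1:**
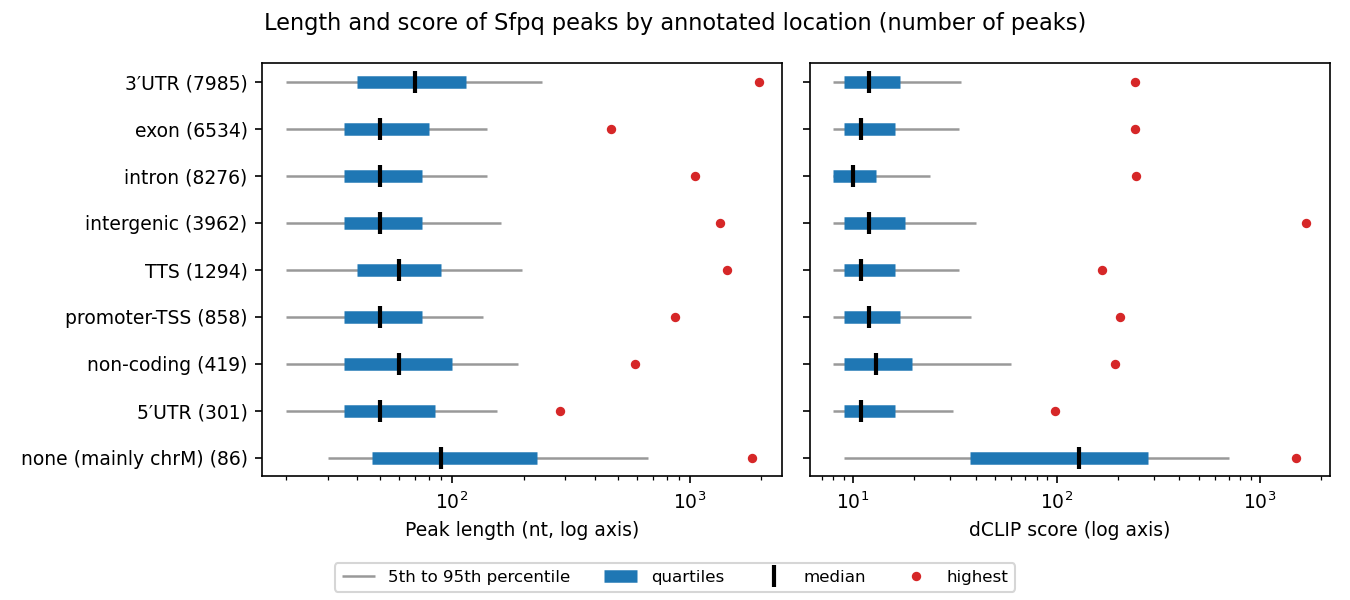
Length (left, nt, log axis) and dCLIP score (right, log axis) of Sfpq peaks by annotated location, with the number of peaks in parentheses. Blue bars are quartiles, black marks medians, grey lines the 5th to 95th percentiles and red dots the highest value. 3′UTR peaks are longer (median 70 nt) than exonic or intronic ones (50 nt), and intronic peaks have the lowest scores (median 10).

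Per length of annotated RNA, the mature parts of mRNAs carried far more peaks than introns. By RefSeq annotation on the peak's own strand, 3′UTRs held 365 peaks per Mb, coding sequences 194, 5′UTRs 115 and exons of non-coding RNAs 53.8. Introns held 8.38 per Mb, so that 3′UTRs exceeded them 43.6-fold and coding sequences 23.2-fold. Introns are removed and degraded soon after transcription. These densities were not set beside RNA abundance.

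The peaks with a gene symbol, 25662 in all, fell on 4946 genes. Binding was uneven across them. The median gene carried 2 peaks (quartiles 1 and 6), 1750 genes (35.4%, 34.1 to 36.7) carried 1 peak, and 768 genes carried 10 or more. The 495 genes with most peaks (10% of all) held 11056 peaks or 43.1% (42.5 to 43.7).

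**Figure D2:**
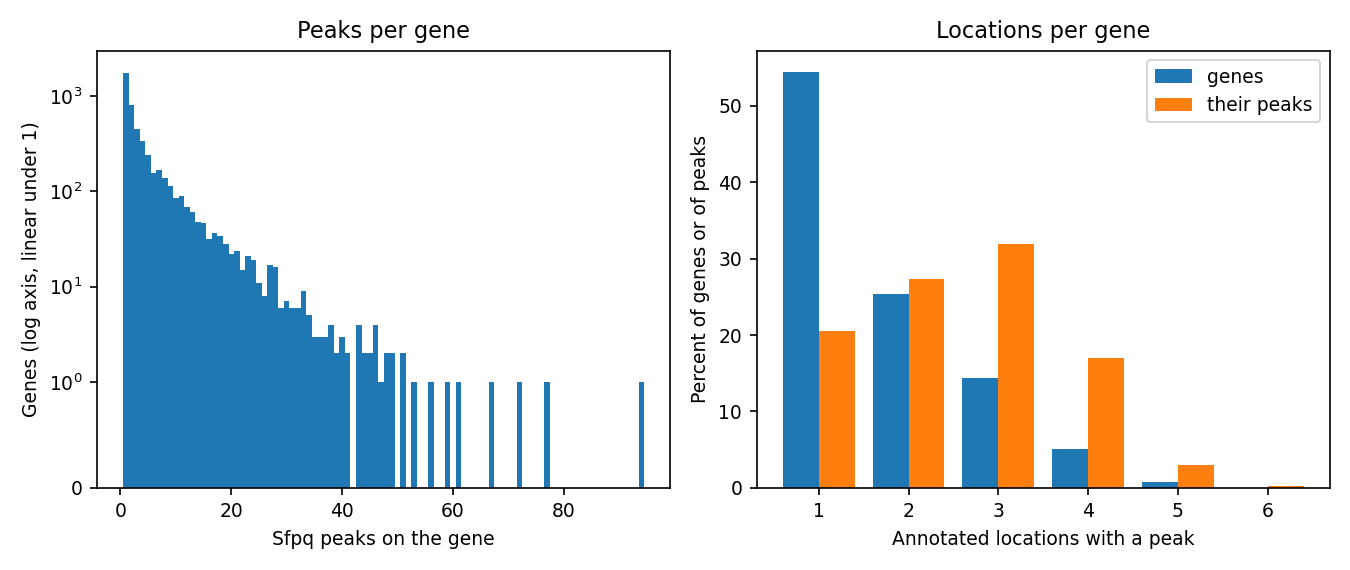
Left, number of genes (log axis, linear under 1) by the number of Sfpq peaks they carry. Right, percent of the 4946 genes (blue) and of their 25662 peaks (orange) by the number of annotated locations with a peak. Genes with 1 location are 54.5% of genes but hold 20.5% of the peaks, and genes with 3 locations are 14.3% of genes and hold 32.0%.

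Crebbp carried 77 peaks, 65 of them intronic and 64 of these in its intron 1, which is 33005 nt long. Its intronic peaks scored 8 to 33 with a median of 11, so that Crebbp stood out by number and not by score. Msantd2 had 61 peaks, 60 of them in its intron 1 (27383 nt) with scores of 8 to 35. Thada had 67, of which 54 were intronic, and 53 of these could be placed in 7 introns. Rbpms (56), Ythdf3 (53), Setd5 (51) and Ube2k (51) also had mostly peaks listed as intronic, 47, 40, 37 and 31. Those of Rbpms, Setd5 and Ube2k were all placed in RefSeq introns. Ythdf3 was not among the 181 genes with 10 or more intronic peaks placed in this way. Rbpms and Ythdf3 themselves encode RNA-binding proteins, the latter a reader of m6A. Setd5 encodes a SET domain protein and Ube2k a ubiquitin-conjugating enzyme.

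Fat1 and Lrp2 stood apart from the other leaders by where they were bound. Fat1 had 72 peaks, of which 59 were exonic, and Lrp2, the endocytic receptor megalin, had 59, of which 54 were exonic. Both have coding sequences of nearly 14 kb. Peaks covered 37.4% of the 13773 nt of Fat1 and 27.4% of the 13983 nt of Lrp2. The exonic peaks of Fat1 had a median score of 21 and a range of 8 to 65. Those of Lrp2 had a median of 14 and a range of 8 to 35.

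**Figure D3:**
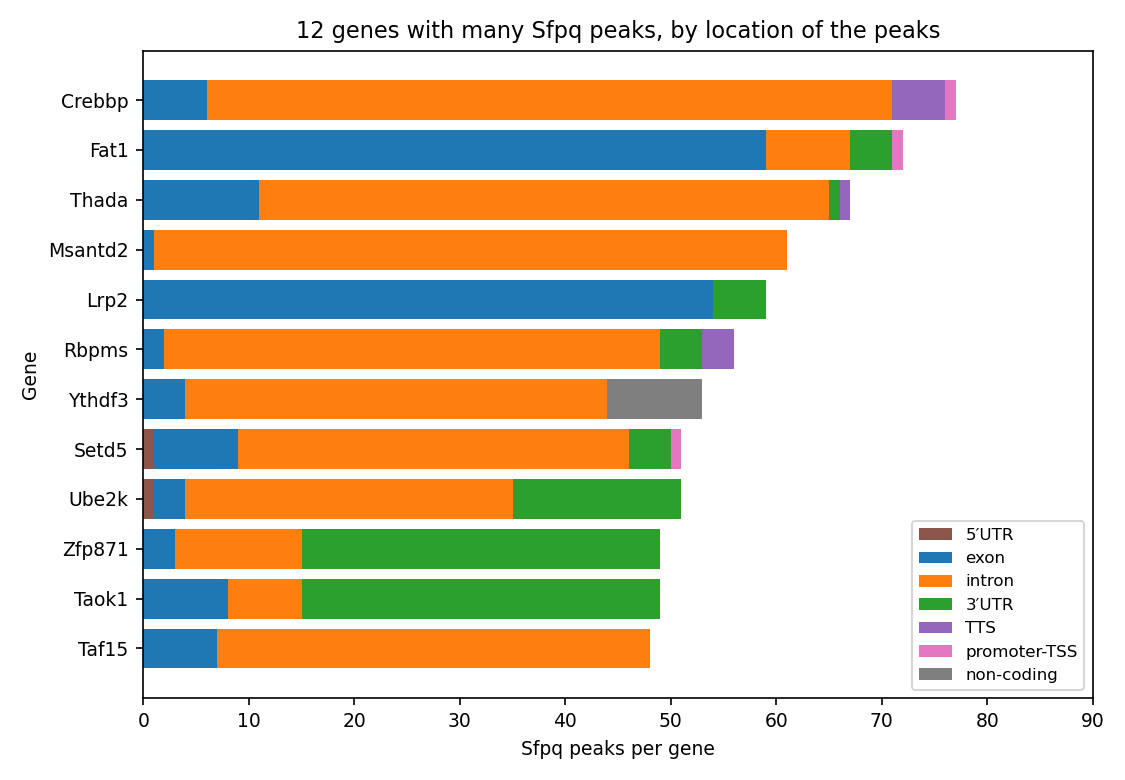
12 genes with many Sfpq peaks (vertical axis), with the number of peaks (horizontal axis) coloured by annotated location. The bar of Crebbp (77 peaks) is mostly intronic, while the bars of Fat1 (72) and Lrp2 (59) are mostly exonic.

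By length covered instead of number, several genes bound in their 3′UTRs stood beside leaders by number such as Fat1. Pgap1, which remodels the lipid anchor of GPI-linked proteins, was covered over 7835 nt by 28 peaks, 16 of them in the 3′UTR with a median length of 440 nt. Sfpq was covered over 7550 nt and Fat1 over 6230 nt. Zfp871 was covered over 6860 nt, of which 5830 nt lay in its 3′UTR, 65.8% of that 3′UTR of 8856 nt. Nufip2 (6275 nt) and Taok1 (5480 nt) had 62.5% and 51.9% of their 3′UTRs under peaks. Cbx5, the heterochromatin protein HP1α, was covered over 5620 nt by 22 peaks, 18 of them in the 3′UTR with scores of 8 to 81. Prtg, which encodes protogenin of the early neural plate, was covered over 5545 nt.

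The 171 3′UTRs with 10 or more peaks had a median of 33.6% of their length under peaks, with a range of 7.82 to 88.3%. The corresponding value for 96 coding sequences was 25.2%. The longest peak of the list, 1945 nt with a score of 115, lay on the 3′UTR of Plagl1, an imprinted zinc finger gene. Among genes, peaks of 900 nt or more were also found on the 3′UTRs of Pgap1 (1285 nt), Gja1 (1275 nt) and Scd2 (900 nt) and on 2 stretches of Sfpq itself. Outside genes, peaks on the mitochondrial genome reached 1835 nt. Those on chromosome 1 in sequence shared with it reached 1335 nt. Among peaks listed as 3′UTR, those close to the stop codon were most frequent. With each 3′UTR cut into 10 equal parts, the part after the stop codon held 13.9% of 7933 placed peaks, the fifth 10.3% and the last 5.22%. The last part held 2.22% in 3′UTRs of 2000 nt or shorter and 6.41% in longer ones. Peaks around transcript ends are listed as TTS and were not placed. The low share of the last part cannot be told apart from this labelling.

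Genes bound in 1 location were the more numerous, but most peaks lay on genes bound in several. Of 4946 genes, 2696 (54.5%) had peaks in 1 annotated location and 2250 (45.5%, 44.1 to 46.9) in 2 or more. A gene with 1 peak can only be bound in 1 location. Among the 3196 genes with 2 or more peaks, 70.4% were bound in several locations. Genes bound only in introns numbered 958, only in the 3′UTR 567 and only in exons 534. The most frequent combinations were exon with 3′UTR (473 genes) and exon, intron and 3′UTR (358 genes).

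The genes bound in the most locations were Rlim and Trim71, each in 6. Rlim, a ubiquitin ligase that acts in X inactivation, had 33 peaks, 21 in the 3′UTR, 7 in exons, 2 in introns and 1 each in the other 3 locations, with a top score of 88. Trim71, a let-7 target of embryonic cells, had 28, of which 9 were exonic, 7 intronic, 5 at the TTS, 4 in the 3′UTR, 2 in the 5′UTR and 1 at the promoter. A further 35 genes were bound in 5 locations.

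At the other end, 52 genes had 10 or more peaks that all lay in 1 location. Xkr6 had 46, all in introns and all in its intron 1 of 190922 nt. Malat1 had 21, all in its non-coding exon. Ttc39b and Ino80d had 19 each and Purb 18, all in the 3′UTR. Dync1h1, the heavy chain of cytoplasmic dynein, had 14, all in exons, although these covered only 5.42% of its coding sequence of 13935 nt. Among all 768 genes with 10 or more peaks, at least 80% of the peaks were intronic in 102 genes, in the 3′UTR in 83 and exonic in 33.

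Intronic binding was concentrated in few introns. The 7490 intronic peaks that could be placed in a RefSeq transcript lay in 2526 introns, and the 413 introns with 5 or more peaks held 54.6% of them. The bound introns were long, with a median of 8680.5 nt against 1429 nt for all 214900 annotated introns. A longer intron offers more sequence for a peak, and these medians were not adjusted for that. The annotated introns also include those of genes without a peak. The first intron of the transcript held 56.1% of the placed intronic peaks, while first introns made up 26.7% of the intron length of the same 2061 transcripts. Of 181 genes with 10 or more placed intronic peaks, 62 had all of them in 1 intron. Tra2a, a splicing regulator, had 38 in intron 1, and Taf15, an RNA-binding protein of the FET family, had 30 of its 41 in intron 7. Bound genes were also long. Protein-coding genes with a peak spanned 31794.5 nt at the median, those with 10 or more peaks 42333 nt and those without a peak 14057 nt. Longer genes likewise offer more sequence for a peak, and these spans were not adjusted for that.

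Other locations had leaders of their own. The non-coding class was led by Atp2a2 with 26 peaks, the calcium pump of the endoplasmic reticulum, which is a coding gene with an annotated non-coding transcript. Malat1 (21), Tug1 (20), Pafah1b1 (19) and Pum2 (16) followed. Zbtb18, a transcriptional repressor, had the most promoter-TSS peaks, 12, and the most in the 5′UTR, 5. The TTS class was led by Neat1 with 7 peaks. These were centred between 3.10 and 4.01 kb and so lay inside the long Neat1 transcript of 20773 nt, not at its end. In 3′UTRs the leaders were Zfp871 and Taok1 with 34 peaks each, Nufip2 with 31 and Tet1, Sox11 and Tnrc6b with 28 each. Besides Fat1 and Lrp2, genes with many exonic peaks were Huwe1 (35), a large ubiquitin ligase, and Srrm2 (32).

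The RNA of Sfpq was itself heavily bound. The gene carried 27 peaks with a median score of 36, against 11 over all peaks. The 7 exonic peaks scored 8 to 30. The 14 intronic peaks, which lie downstream of the exonic ones, scored 9 to 81 with a median of 47.5. All 14 were placed in intron 9 (8289 nt) of a non-coding transcript of the gene. The peaks listed as 3′UTR and TTS lay between them, so this intron also spans the end of another Sfpq transcript. The 3 TTS peaks, 1 of them 1440 nt long, scored 29 to 46. From the start of the gene the peaks reached from 0.687 to 15.01 kb of an annotated span of 30386 nt. Sfpq was also the target of the siRNA, so that for this gene a difference between the conditions includes any difference in its own RNA. The family members Pspc1 and Nono were bound more lightly. Pspc1 had 13 peaks, 11 of them intronic, with a top score of 21. Nono had 5 peaks, with a top score of 27.

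The nuclear long non-coding RNAs Malat1 and Neat1, which mark nuclear speckles and paraspeckles, differed in their scores. All 21 peaks of Malat1 scored between 29 and 193, with a median of 94, and together covered 2585 nt of its 6983 nt. The list gives 12 peaks to Neat1. A further 35 peaks listed as intergenic lay within the long Neat1 transcript of current RefSeq, which makes 47 on its strand from 1.36 to 20.4 kb of its 20773 nt. Their median score was 12 and the highest was 37. All 21 Malat1 peaks thus exceeded the median of Neat1, while the ranges overlapped between 29 and 37.

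**Figure D4:**
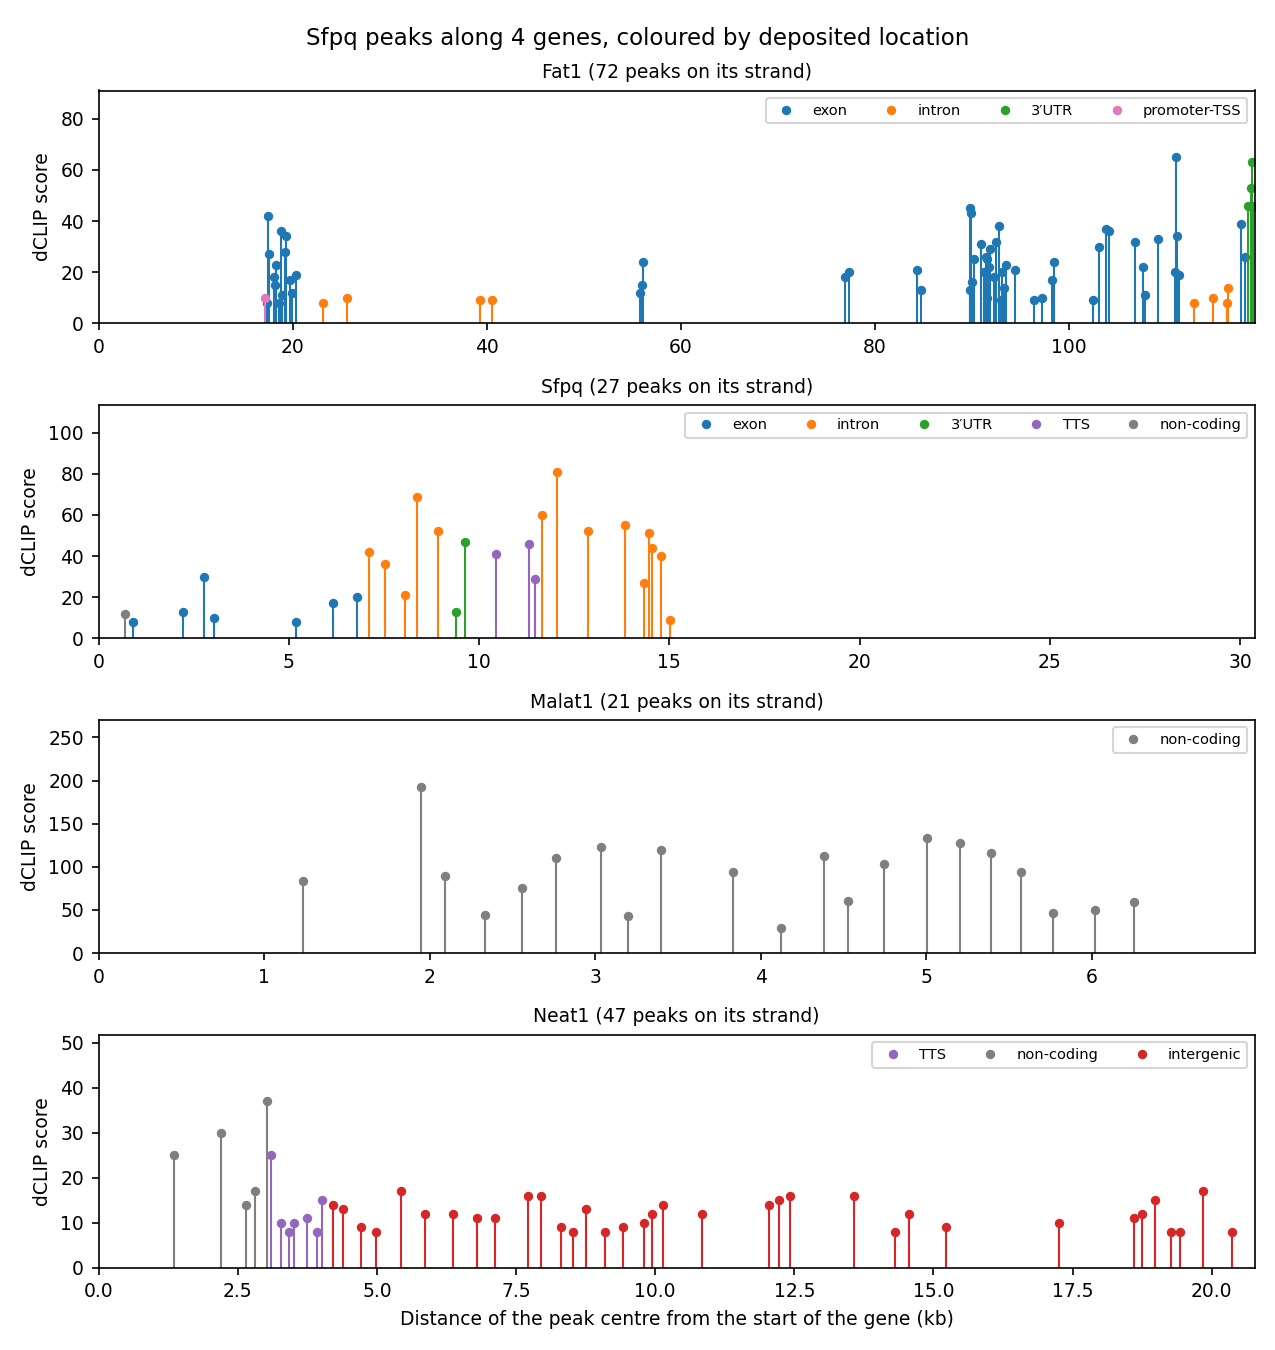
Sfpq peaks along Fat1, Sfpq, Malat1 and Neat1. The horizontal axis is the distance of the peak centre from the start of the gene (kb), the vertical axis the dCLIP score, and colour the annotated location. Fat1 has its peaks mostly in exons, Sfpq in the downstream part of its first 15.01 kb, Malat1 between 1.24 and 6.25 kb with scores up to 193, and Neat1 along its whole length, 35 of 47 of them listed as intergenic.

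Other long non-coding RNAs were bound as well. Tug1 had 27 peaks with a top score of 52, and Meg3 and Rian, from the imprinted locus that also holds Dlk1, had 26 and 18 peaks with top scores of 22 and 41. At the imprinted Snrpn locus, 88 peaks lay on the strand of the snoRNA host transcript Snhg14. They were listed under Snhg14, Snrpn, Snurf, Snord64 or as intergenic (18), had a top score of 206 and covered 10955 nt. Those listed under Snrpn also lay within Snrpn and Snurf on the same strand and cannot be assigned to Snhg14 alone. They are counted again among the imprinted genes below. Of the 23 nuclear long non-coding RNAs examined, 11 had a listed peak (13 when genes were found by overlap on the strand), against 0.927% of the 12731 lncRNA genes that the RefSeq annotation holds. Well-known RNAs made up the 23, so these shares are not alike in kind and nothing was read from their difference. H19, Kcnq1ot1, Airn, Miat, Xist and Tsix had none by either count.

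High scores in genes were found on a mixed set of mRNAs. In Peg10 the 9 peaks of the 3′UTR scored 30 to 244 (median 77), the 14 of the exons 9 to 81 (median 36) and the 13 of the introns 8 to 31 (median 13). Slc2a3 had 8 exonic peaks of 45 to 227 (median 111), 6 in the 3′UTR of 44 to 242 (median 150.5) and 5 intronic ones of 8 to 21. In both genes the intronic peaks thus had the lowest median score. Hspa5 had 11 peaks, all at 54 or above, of which the 8 exonic ones reached 243 and had a median of 124. Canx, the ER chaperone calnexin, combined 11 exonic peaks of 28 to 180 with 20 intronic ones of 8 to 27. Gja1, the gap junction protein connexin 43, did likewise, with 16 intronic peaks of 8 to 24 and 10 in the exons and UTRs of 46 to 176.

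The genes on which the study of Sfpq and let-7a concentrated were bound to different degrees. Igf2bp1, an oncofetal RNA-binding protein, had 36 peaks, 24 of them in the 3′UTR with scores of 10 to 140. Lin28a had 23, of which the 6 in the 3′UTR scored 32 to 113 and the 11 in introns 8 to 18. Hic2 had 4 peaks with a top score of 11 and Mier2 had 1 with a score of 9. No peak of the list was annotated to Atf6b or Dusp1.

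To find which groups of genes carry most binding, the members of 31 lists were counted, 29 of them set by function or family with earlier results of these data known and 2 added after the values of members had been seen. Over all 21900 protein-coding genes, 21% had 1 or more peaks and 3.43% had 10 or more. Expression in P19 cells was not used here, and the shares were not adjusted for how many members of a list are transcribed there.

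Genes of nuclear RNA processing were bound almost completely. Of 42 splicing factors, 40 had a peak (95.2%, 84.2 to 98.7) and 23 had 10 or more. Ptbp2, a repressor of neuronal exons, led with 46 peaks (40 intronic), followed by Srrm2 with 40 (32 exonic), Tra2a with 40 (38 intronic) and Hnrnpf with 34 (27 intronic, top score 132). Introns held 49.5% of the peaks of this list, against 32.3% for all protein-coding genes.

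Of 18 genes of paraspeckle proteins and the DBHS family, 17 were bound, with Rbm7 the exception, and 11 had 10 or more peaks. Taf15 had 48 peaks (41 intronic, top score 72) and Cpsf6, a subunit of the 3′ end cleavage factor, had 41 (22 in the 3′UTR, 18 intronic). Matr3 had 29 peaks (23 intronic). Tardbp, which encodes TDP-43, had 26, 9 of them in the 3′UTR and none in introns. Introns held 55.9% of the peaks of these genes.

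Chromatin regulators were bound in 55 of 59 cases (93.2%, 83.8 to 97.3), and 19 had 10 or more peaks. After Crebbp (77) and Setd5 (51) came Tet1, a 5-methylcytosine dioxygenase, with 35 peaks, 28 of them in the 3′UTR. Chd4, the remodeller of the NuRD complex, had 28 peaks, of which 17 were exonic. The median member of this list carried 5 peaks.

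Many genes of ER folding, translocation and glycosylation had 10 or more peaks. This list was added after several of its members had been seen among the highest peaks, so neither its share of bound genes nor its scores stand as independent evidence. Of 40 members, 36 had a peak and 24 had 10 or more. The median of the members' top scores was 40, against 13 for all bound protein-coding genes. Exons held 50.0% of the peaks. Besides Hspa5 and Canx, Hsp90b1, the chaperone GRP94, had 13 exonic peaks of 23 to 162, which covered 67.9% of its coding sequence of 2409 nt. Calr and Pdia6 reached 138 and 135 with 7 and 8 peaks. Ssr1 (32) and Stt3a (28), subunits of the translocon-associated complex and of oligosaccharyltransferase, had more peaks with top scores of 75 and 91. The second list added in this way held large secreted or membrane proteins. Of its 30 members 18 were bound, and 67.8% of their peaks were exonic. Celsr1, Celsr2, Celsr3, Fat2, Fat4 and Hspg2 had none.

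The mRNAs of post-transcriptional regulators were bound in large part. Of 26 genes of proteins that bind 3′UTRs, 23 had a peak. Pum2, a Pumilio protein, had 39, Msi2 37 and Celf1 24, with 21 of the Celf1 peaks in the 3′UTR. Of 16 genes of the miRNA silencing machinery, 11 were bound and 5 had 10 or more peaks. Tnrc6b, a GW182 protein, had 32 peaks (28 in the 3′UTR), Ago2 had 29 (21 in the 3′UTR, top score 62) and the helicase Ddx6 had 21 (13 in the 3′UTR). A further 16 peaks listed as intergenic lay within 10000 nt after the annotated end of Ago2. Ago3, Ago4, Mov10 and Tarbp2 had none. Of the deadenylation and decapping genes, 17 of 28 were bound. Cnot2 led with 26 peaks, 25 of them listed as intronic, of which 11 could be placed in RefSeq introns. Dcp2 had 25, 24 of them in the 3′UTR, where they covered 53.0% of 7240 nt.

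Genes of the embryonic state were bound unevenly. Of 25 oncofetal genes and let-7 targets, 20 had a peak and 12 had 10 or more, among them Peg10 (37), Igf2bp1 (36), Trim71 (28), Ccnd2 (22), Insr (21) and Igf1r (20). The 3′UTRs held 50.3% of these peaks. Myc, Ccnd1, Cdc25a and E2f2 had none, and Hmga2 had 1 with a score of 10. Over all protein-coding genes, 10.1% had a peak in the 3′UTR and 5.23% a peak with a score of 20 or more. In the let-7 list, 18 of 25 had a peak in the 3′UTR and 12 reached a score of 20.

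Of 25 pluripotency factors, 10 were bound. Lin28a (23 peaks) and Otx2 (20) were ahead of Sox2 (7), Pou5f1 (3), Sall4 (3) and Nanog (2). Esrrb, Klf2, Klf4, Klf5 and Dppa4 had none. Of 10 markers of P19 and stem cells, 8 had a peak. Of 53 markers of hepatocytes, blood, muscle, mature neurons and fibroblasts, 1 had a peak, Acta1, with a score of 9. Of 10 early lineage markers, the mesoderm gene T was the only one bound, with 7 peaks.

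Among signalling genes, 18 of 27 of the Wnt pathway and 13 of 21 of the Nodal and activin pathway had a peak. Ctnnb1, which encodes β-catenin, had 36 peaks, 24 of them intronic and all in 1 intron. The co-receptor Lrp6 had 32 and the kinase Gsk3b 23, of which 17 were in the 3′UTR. Skil, an antagonist of Smad signalling, had 31 peaks with a top score of 58. Smad4 had 19 and Smad2 16. The receptor Acvr2b had 12 listed peaks, and 31 more on its strand were listed as intergenic. Early neural genes were bound in 11 of 32 cases, led by Prtg (40), Sox11 (32, of which 28 in the 3′UTR) and Map1b (24).

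Most imprinted genes had either many listed peaks or none under their names. Of 32, 15 had a peak and 10 of these had 10 or more, led by Snrpn (44, of which 41 intronic), Peg10 (37), Meg3 (26), Rian (18), Plagl1 (17), Ube3a (16) and Gnas (15). Igf2, Dlk1, Cdkn1c and Nnat had none.

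Large families were closer to the share of all genes. Of 371 genes of ubiquitin conjugation and removal, 141 were bound (38.0%, 33.2 to 43.0), among them Ube2k (51), Huwe1 (43) and Usp9x (37). Of 403 Zfp zinc finger genes 25.8% were bound (21.8 to 30.3), with Zfp871 (49) and Zfp644 (45) ahead. Of 379 solute carriers 21.9% were bound (18.0 to 26.3). The interval of the solute carriers includes the 21% of all protein-coding genes, and that of the Zfp genes lies just above it. Among the carriers, Slc38a1 (35), Slc7a1 (34) and Slc6a6 (33), transporters of amino acids and taurine, had most peaks.

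Genes of ribosomal proteins and histones were bound more often than the 21% of all protein-coding genes, though few had many peaks. Of 84 cytosolic ribosomal protein genes, 36 had a peak (42.9%) and 1 had 10 or more (1.19%), Rpl22 with 11. The 36 became 24 when repeated peaks were left out and 50 with genes found by overlap. Of 70 histone genes, 34 were bound (48.6%, 19 genes when repeated peaks were left out) and none had 10 or more. Over all protein-coding genes 3.43% had 10 or more. With lists this small, a shortage of genes with many peaks was not shown. Of 24 housekeeping genes of metabolism, 19 were bound and 2 had 10 or more. Pkm, pyruvate kinase, had 24 peaks, 21 of them intronic with a top score of 76 over the gene, and Pgk1 had 10. Among 36 cyclins and cell cycle kinases, 20 were bound, and Ccnd2 (22) and Ccnt2 (13) had 10 or more peaks.

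**Figure D5:**
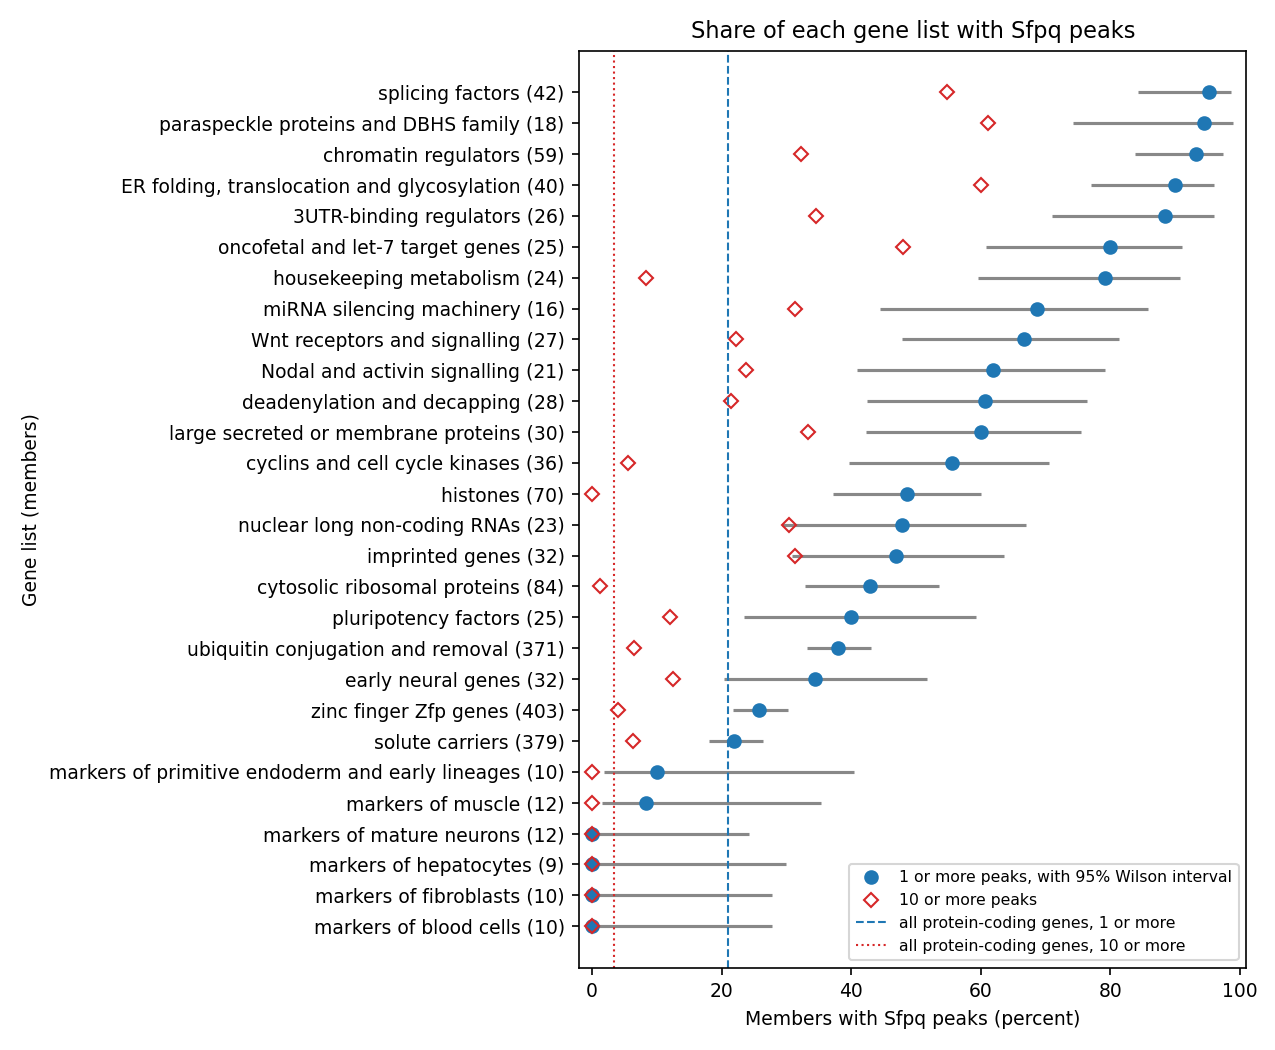
Percent of the members of each gene list (number of members in parentheses) with 1 or more Sfpq peaks (blue dots, bars are 95% Wilson intervals) and with 10 or more (red diamonds). The dashed blue and dotted red lines are the shares among all protein-coding genes, 21% and 3.43%. Splicing factors (95.2%), paraspeckle proteins (94.4%) and chromatin regulators (93.2%) are at the top, and markers of other cell types at or near 0.

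Of all gene peaks, 92.5% (92.2 to 92.8) lay on the strand of the gene the list names. This share was 99.6% in 3′UTRs, 99.7% in exons and 92.4% in introns, where 558 peaks lay antisense. It was 46.9% for TTS and 40.3% for promoter-TSS peaks, of which 35.1% and 46.7% lay on the strand of another gene. The names of these 2 classes are therefore often those of a neighbour. The same holds for the 326 peaks listed under a miRNA or snoRNA gene. Of these, 214 (65.6%) lay on the strand of another gene and not of the small RNA named, and 60 overlapped the small RNA itself.

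The intergenic peaks were mixed. Of 3962, 710 (17.9%) lay within a gene of current RefSeq on its strand, such as Neat1 (35), Hmbox1 (32) and Acvr2b (31). A further 676 (17.1%) began within 10000 nt after the end of a gene on its strand, such as Gnasas1 (31), Ago2 (16) and Trim71 (11). The other 2576 did neither. Most of the latter were in repeated sequence. Of those long enough to be examined, 82.2% had at least 50% of their 25 nt words elsewhere in the genome, against 18.4% of the intergenic peaks that lay in a gene. The Y RNAs Rny1 and Rny3, small cytoplasmic non-coding RNAs, each lay under 1 peak listed as intergenic, with scores of 449 and 187.

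The highest scores of the list belonged to mitochondrial RNA or its nuclear copies. Of the 10 highest peaks, 7 lay on the mitochondrial genome and the other 3 on chromosome 1 in sequence shared with it. The 45 peaks on the plus strand of the mitochondrial genome had a median score of 139 and the 34 on the minus strand 154, against 11 over all peaks. A further 112 nuclear peaks shared at least 1 word of 25 nt with the mitochondrial genome. The highest gene peak, with a score of 245 in an intron of Adarb2, was 30 nt long, antisense to the gene and repeated elsewhere, and its origin is therefore uncertain. The peaks of Peg10, Hspa5 and Slc2a3 that follow it lay on the strand of their genes.

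Counted together, CUGU and CUGA were denser in the peaks than beside them in introns, 3′UTRs and exons. NUGUA was denser in introns and 3′UTRs but not in exons or 5′UTRs. The study had found these words by a motif search in the Sfpq peaks of this same experiment. Their higher density in the peaks is therefore no independent evidence. Per 100 nt, CUGU or CUGA occurred 1.54 times in peaks and 1.18 times in windows of equal length shifted by 500 nt along the genome, a ratio of 1.30. NUGUA occurred 0.701 and 0.549 times, a ratio of 1.28. Words were counted on the transcribed strand only, and a CUGUA counts for both. Of the peaks, 59.7% held CUGU or CUGA and 32.8% held NUGUA, against 49.6% and 27.5% of the shifted windows. The ratio for CUGU or CUGA was highest in introns (1.48) and lower in 3′UTRs (1.27) and exons (1.13). That for NUGUA was 1.46 in 3′UTRs, 1.69 around transcript ends, 0.692 in exons and 0.705 in 5′UTRs. Taken as single words in exons, CUGA had a ratio of 1.286 and CUGU 1.002, so the exonic excess lay in CUGA.

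The comparison in exons sets coding sequence against other sequence. Of the windows shifted from exonic peaks, 19.3% lay in coding sequence, against 78.1% and 89.9% of those from 3′UTR and intronic peaks that stayed in a 3′UTR or an intron. The words with the highest ratios in exons all contained CG, led by AUCG at 3.36. Over all peaks the highest ratios also belonged to words with CG, led by AUCG at 1.82. There CUGU ranked 27, UGUA 38 and CUGA 46 among words of that length, while in 3′UTRs UGUA ranked 1 and CUGU 2. In exons, neither the ratio of CUGU or CUGA nor the deficit of NUGUA can be told apart from the difference between coding and other sequence.

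Few Sfpq peaks touched a listed Ago2 peak. Overlap by at least 1 nt was found for 598 Sfpq peaks (2.01%, 1.86 to 2.18) with the Ago2 peaks of cells with a let-7a mimic and for 318 (1.07%, 0.959 to 1.19) with those of control cells. Seen from the other side, 588 of 4202 Ago2-let-7a peaks (14.0%) and 287 of 1929 control Ago2 peaks with a strand (14.9%) touched an Sfpq peak. In 3′UTRs these shares were 27.7% of 987 and 54.1% of 320. The Ago2 lists were made by different methods, so the shares were not compared with each other. The Sfpq peaks that touched an Ago2-let-7a peak had a median score of 17 and a median length of 75 nt, against 11 and 55 nt for the others. In 3′UTRs, which held 280 of the 598, the values were 16 and 97.5 nt against 12 and 65 nt. A longer peak can overlap another more easily, and the scores were not adjusted for length. Peg10 and Igf2bp1 had the most contacts with the Ago2-let-7a list, 10 each, followed by Slc2a3, Scd2, Skil, Map1b, Lin28a and Prtg with 5 each. Against the control list Peg10 had 11, Cxadr 8 and Slc2a3 7.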

How the data were processed

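HITS-CLIP peaks of P19 cells were analysed as deposited. Per the submitters' notes and the study's methods, the authors trimmed reads with cutadapt, mapped them to mm10 with STAR and Bowtie2 (versions not given in the sources used here), merged the 3 replicates of each condition and called Sfpq peaks with dCLIP. The deposited value of the Sfpq and Ago2-let-7a lists is a dCLIP score, and that of the control Ago2 list a read count per peak. Ago2 values were not compared. Only Sfpq peaks above a score cutoff were kept by the authors. The depth per library was not used here, the lists hold no column per sample, and groups follow GEO's labels.

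Coordinates stand as deposited. Starts fall on multiples of 5, so a printed start may differ by 1 base from a 1-based position, while windows of printed sequence are 1-based. Gene symbols were updated for 733 peaks, and those of 40 peaks that had become dates were restored. Only 61 peaks lay on another chromosome than the annotation gives their symbol. RefSeq GRCm38, which is mm10, supplied transcripts and sequence, and genes were matched on the strand. Of the peaks, 27688 were long enough for words of 25 nt, taken every 5 nt. A peak was called repeated if at least 50% of them occurred elsewhere. Shares have 95% Wilson intervals. Scripts used Python 3.11.15, pandas 2.3.3, NumPy 2.4.6, SciPy 1.17.1, pysam 0.24.0, samtools 1.23.1 and Matplotlib 3.10.9, and were tested on simulated data.

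The members and lists were chosen with earlier results of these data known. Genes named are those with most peaks, the highest scores, the greatest covered length or the most locations, the leaders of each location and list, Sfpq, Nono, Pspc1, Neat1, Malat1, Lin28a and genes of the study. Some genes that meet this rule are not reported here. The others (such as Xkr6, Gja1, Scd2, Purb, Rny1 and members without a peak), the lists of ER and of large proteins and the settings on repeats, overlap of gene lists and free windows were chosen after seeing the data.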

Additional observations from a re-analysis of the deposited data

How the results depend on the processing

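No paired analysis was possible because the lists carry no value per replicate, and for the same reason no replicate could be left out. Without intergenic peaks the values per gene are the same, since those peaks carry no symbol. Of 61 other values over the whole list, 32 stayed within 1.5 times the count or within the interval and 29 moved. The share of 3′UTR peaks (26.9%) was 28.9% at a score of 10 or more, 31.5% at 20 or more, 24.8% with peaks within 50 nt merged, 29.5% without repeated peaks and 26.1% with each gene counted 1 time per location. The share of introns (27.9%) was 23.1%, 14.7%, 28.8%, 29.0% and 26.3% under the same settings, so that 3′UTRs exceeded introns at both scores and without repeated peaks. At a score of 20 or more the median length was 65 nt, the genes numbered 1258, the 10% of genes with most peaks held 40.5% of peaks (41.0% with peaks merged), and 5.23% of protein-coding genes had a peak, against 10.1% by 3′UTR peaks and 19.2% without repeats. Genes in several locations fell from 45.5% to 40.7% and 28.7% at scores of 10 and 20 or more, and to 37.9% with 2 peaks needed per location. With genes found by overlap, 96.3% of gene peaks lay on a gene's strand. The ratio of CUGU or CUGA was 1.39 with windows free of Sfpq peaks. That of NUGUA was 1.33 there, 1.23 with windows shifted by 200 nt and 1.36 at a score of 20 or more. Contact with Ago2-let-7a peaks rose from 2.01% to 3.82% within 100 nt and was 1.75% at a Jaccard index of 0.1, and that with control Ago2 peaks was 1.65% and 0.872%. Of the 31 gene lists, 22 changed their count of bound members by over 1.5 times at a score of 20 or more, 15 with 3′UTR peaks only, 3 with genes found by overlap and 1, the histones (34 to 19), without repeats. The settings on repeats, on overlap of gene lists and on free windows were chosen after seeing the data.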

Other observations

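Several genes had peaks on their strand that the list names after a neighbour. Of the TTS and promoter-TSS peaks that lay on the strand of another gene than the one named, 12 lay on Snx5, 8 each on Ddx5 and Ncl, 7 each on Hnrnpa1 and Tnrc6b and 6 on Hnrnpk. Ddx5, an RNA helicase, reached a score of 85 there and Ncl, nucleolin, 57. Mib1, a ubiquitin ligase of Notch signalling, had 11 listed peaks and 25 on its strand, and Uhmk1, a kinase that binds RNA, had 10 and 22.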
